A study of Homo sapiens with 6 samples.

Results

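The 80 genes described here encode the proteins of the cytosolic ribosome. They were taken by symbol from the 62700 genes of the deposited gene table: protein-coding genes named RPL or RPS plus digits, with an optional ending of A, L or X, and RPSA, RPLP0, RPLP1 and RPLP2. The pattern matched 81 symbols, and RPS27L, which is not counted as a member, was left out. Of the 80, 49 belong to the large subunit and 31 to the small subunit, and they lie on 21 chromosomes. Polyadenylated RNA was measured in TCam-2, an established human testicular cancer cell line of seminoma type. Each of the 3 groups had 2 libraries: non-transduced cells (WT), cells transduced with GFP_FLAG, which overexpress a tagged green fluorescent protein (GFP), and cells transduced with RBMXL3_FLAG, which overexpress a tagged RBMXL3 (RBMXL3). RBMXL3 belongs with RBMX among RNA-binding proteins, and WT and GFP are the negative controls of the study. The labels do not state the promoter of the transgenes, whether cells were cloned or pooled after transduction, or whether libraries of a group came from separate cultures, so p-values measure only the spread between libraries.

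A ribosome holds 1 copy of nearly every one of these proteins, bound to ribosomal RNA, and the stalk proteins RPLP1 and RPLP2 are present in more. Growing cells therefore make the messenger RNAs of all members at high and fairly even levels. Most of these messenger RNAs begin with a C followed by a run of pyrimidines, the terminal oligopyrimidine (TOP) tract. Through it, translation and stability of the whole class respond to the mTOR kinase and to the RNA-binding protein LARP1. RPL5 and RPL11 also bind MDM2 together with 5S ribosomal RNA and so link ribosome assembly to p53.

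RefSeq promoter windows (GRCh38.p14) were found for 63 of the 80 members. A C followed by at least 4 pyrimidines (C or T) stood at an annotated start of 46 of these 63 genes (73.0%), against 1404 of 27305 genes of the whole promoter table (5.14%). The search was on the gene's own strand only, and a match is a description of letters, not a mapped start of these cells. The windows below are those of members that the results turn on, from 30 bases before the annotated start to 20 bases from it on, written 5′ to 3′ on the gene's strand. Capitals mark the C and the pyrimidine run that starts there, and a sequence without capitals has no such run at the annotated start.
RPS24 (chr10:78033833-78033882, plus strand): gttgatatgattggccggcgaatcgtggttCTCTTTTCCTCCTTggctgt
RPL28 (chr19:55385902-55385951, plus strand): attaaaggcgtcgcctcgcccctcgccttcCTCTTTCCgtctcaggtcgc
RPS26 (chr12:56041888-56041937, plus strand): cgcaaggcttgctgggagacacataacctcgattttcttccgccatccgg
RPS4X (chrX:72277229-72277278, minus strand): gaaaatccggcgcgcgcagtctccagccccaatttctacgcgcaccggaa
RPL22 (chr1:6199576-6199625, minus strand): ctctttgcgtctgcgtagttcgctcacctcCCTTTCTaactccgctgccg
RPS27 (chr1:153990732-153990781, plus strand): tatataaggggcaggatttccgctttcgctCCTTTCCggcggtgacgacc
RPS21 (chr20:62387073-62387122, plus strand): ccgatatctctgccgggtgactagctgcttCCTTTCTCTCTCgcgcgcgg
RPS12 (chr6:132814539-132814588, plus strand): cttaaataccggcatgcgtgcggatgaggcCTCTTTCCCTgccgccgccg
RPS29 (chr14:49598691-49598740, minus strand): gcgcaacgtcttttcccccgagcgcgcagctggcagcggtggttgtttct
RPLP0 (chr12:120201092-120201141, minus strand): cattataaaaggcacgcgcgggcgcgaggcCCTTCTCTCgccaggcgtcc
RPS24 has a tract of 14 bases and RPL28 one of 8, while RPS26 and RPS4X, which share their direction of change with these, have none at the annotated start. RPS21 and RPS12, which were higher in GFP than in WT, have tracts there, and RPS29, which was also higher, has none.

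Library depth, recovered from the normalised values, was 28604436 to 29318007 reads in WT, 23080795 to 26776703 in GFP and 17685680 to 21023355 in RBMXL3. Reads of RBMXL3 itself numbered 0 in the 4 control libraries, and 84 and 68 in the RBMXL3 libraries. Mitochondrially encoded genes took 1.31% of the reads of GFP library 1 and 2.02% to 3.02% in the other libraries. Seminoma markers fitted the label in part: in group means POU5F1 was at 1459 TPM or more and SOX17 at 134 TPM or more, SOX2, which embryonal carcinoma expresses, stayed under 1 TPM, and KIT, a seminoma receptor, was at 5.31 TPM or less. Of 6 fibroblast markers, DCN was near 0, at 0.110 TPM or less, and COL1A2 was at 169 to 195 TPM. The labels name neither batches nor dates, so effects of preparation and of group cannot be told apart.

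Levels between genes are compared here per length, in TPM, a transcript abundance scaled to length and to the library, summed per gene. In every library 76 members exceeded 100 TPM, and the median member lay between 1922 TPM (WT library 1) and 2362 TPM (GFP library 2). The standard deviation of these 76 on the log2 scale was 0.78 to 0.86. By the mean over 6 libraries the most abundant member was RPL8, a large-subunit protein near the catalytic centre, at 7022 ± 98.2 TPM in WT cells, 8029 ± 385 in GFP cells and 7629 ± 77.2 in RBMXL3 cells (SD, n = 2). RPL41, the smallest ribosomal protein, stood at 6435 ± 1110 TPM in WT cells, 8301 ± 131 in GFP cells and 5429 ± 225 in RBMXL3 cells. RPL30, which also binds its own messenger RNA in yeast, followed at 4510 ± 497, 5340 ± 593 and 4810 ± 48.7 TPM. RPL41 was above RPL8 in the mean of GFP and in WT library 2, and the 2 overlapped in the WT and in the GFP libraries, while RPL30 was under RPL41 in all 6 libraries.

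The lowest TPM among the tested members was that of RPS27, with 20.4 and 27.0 in WT cells, 22.1 and 23.6 in GFP cells and 39.7 and 39.5 in RBMXL3 cells, although it had 15136 to 22794 normalised reads per library. Tissue-limited paralogs were also low. RPL3L, a paralog of RPL3 known from heart and skeletal muscle, had 13 and 11 reads in WT cells, 14 and 19 in GFP cells and 23 and 21 in RBMXL3 cells, all under 1 TPM. RPL10L, a testis paralog of RPL10 that takes over in male meiosis, had 3 to 5 reads in each library. Both missed the filter on low values, so 78 members were tested. RPL39L, a paralog of RPL39 expressed in male germ cells and in several cancers, was present: 38.2 and 41.5 TPM in WT, 47.2 and 54.5 in GFP, 54.2 and 53.2 in RBMXL3. In normalised reads it stood at 380 and 401 in WT cells, 511 and 591 in GFP cells and 475 and 451 in RBMXL3 cells, and GFP was above WT by 0.47 on the log2 scale (SE 0.12, limma adjusted p = 0.0498).

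The members together took 5.19% and 5.76% of the reads in WT cells, 7.10% and 7.28% in GFP cells, and 6.26% and 5.85% in RBMXL3 cells. Both GFP libraries were above the other 4, and both RBMXL3 libraries were above both WT libraries. Means were 5.48% ± 0.404 for WT, 7.19% ± 0.121 for GFP and 6.06% ± 0.290 for RBMXL3 (SD, n = 2). In bulk RNA, a lower level in all cells and fewer cells with a high level cannot be told apart. Summed TPM, which counts each transcript per length, gave 15.6% and 17.2% in WT cells, 19.1% and 20.2% in GFP cells and 18.8% and 18.0% in RBMXL3 cells, with the groups in the same order. RBMXL3 and GFP lie nearer to each other on this scale, at 18.4% ± 0.562 and 19.7% ± 0.811. Pseudogenes of ribosomal proteins, which can share reads with their parent genes, held 0.0456% to 0.0600% of the reads.

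**Figure D1:**
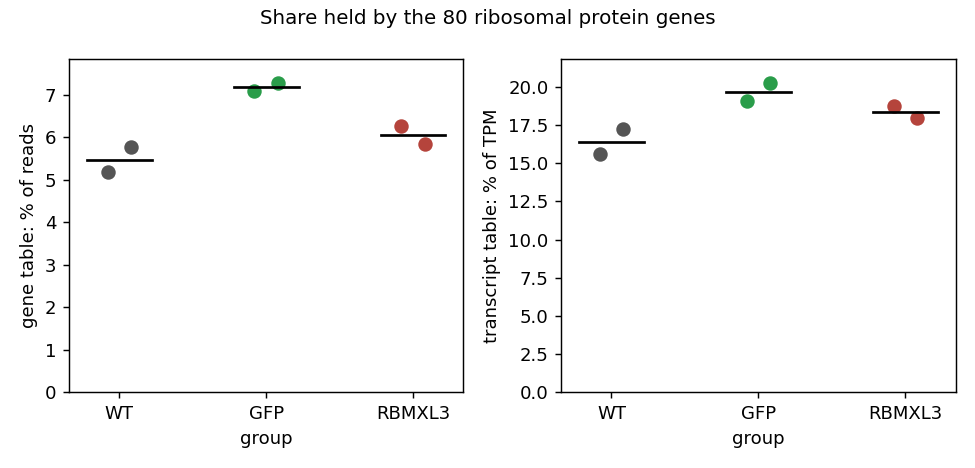
Share of all reads (left, %) and of all TPM (right, %) held by the 80 ribosomal protein genes, by group. Points are libraries and lines are group means of 2 libraries. GFP is highest on both scales, at 7.10% and 7.28% of reads.

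The plot of member deviations shows this shift member by member. Each value is a member's log2(normalised reads + 1) minus its mean over the 6 libraries. The median deviation was −0.25 in WT library 1, −0.06 in WT library 2, 0.25 and 0.28 in GFP, and −0.03 and −0.15 in RBMXL3. Of 78 members, 6 and 19 were above their own mean in the WT libraries, 61 and 77 in the GFP libraries and 34 and 18 in the RBMXL3 libraries. The WT libraries differed from each other by more at the median than the RBMXL3 libraries did.

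**Figure D2:**
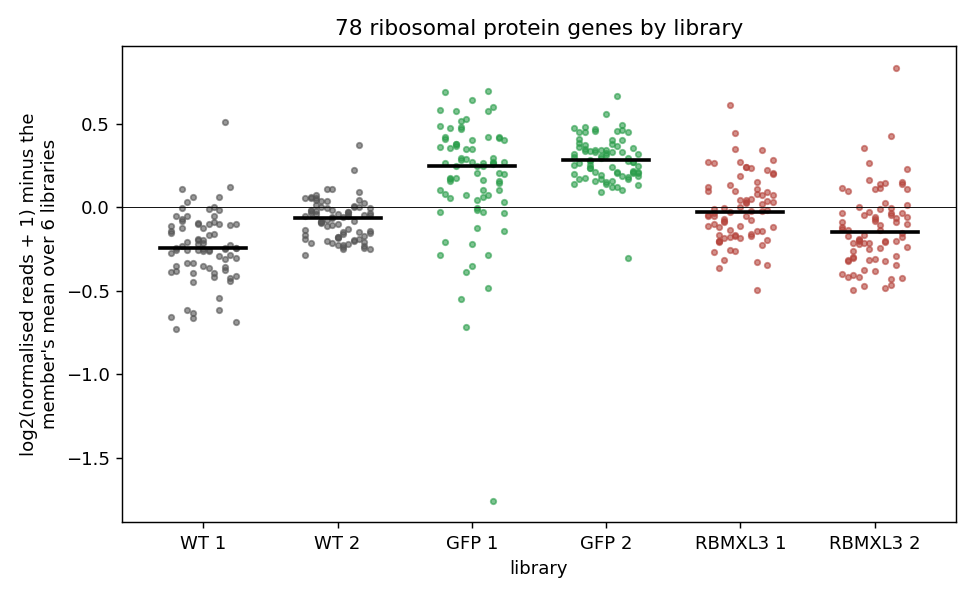
Deviation of each of the 78 tested members from its own mean over 6 libraries (log2 scale), by library. Points are members and lines are medians, which run from −0.25 in WT library 1 to 0.28 in GFP library 2. The lowest point, in GFP library 1 at −1.76, is RPL36A.

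Between the controls, the comparison of GFP with WT asks what transduction with a tagged control protein goes with. Of the 78 members, 25 were called (limma, adjusted p under 0.05), where 3.67% of all 14292 genes were. All 25 were higher in GFP, where 1.76% of all genes were, and 0 were lower, where 1.91% of all genes were. At an unadjusted p under 0.05, 62 members were higher and 1 lower. On recovered reads edgeR called 22 members higher and 0 lower, where it called 1.62% of all genes higher and 1.69% lower. DESeq2 called 41 members higher and 0 lower, where it called 2.47% of all genes higher and 2.39% lower. The median member was 0.40 higher on the log2 scale, against −0.01 for all genes, and 76 members were above 0. Both GFP libraries exceeded both WT libraries for 68 members, where 24.4% of all genes did so.

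The members with the largest rises in GFP were small-subunit genes. RPS21, a small-subunit protein, had 5828 and 10072 normalised reads in WT cells, 15566 and 12395 in GFP cells and 9305 and 7732 in RBMXL3 cells. GFP was above both other groups in each library, and the WT libraries differed from each other by more than the RBMXL3 ones. The rise of RPS21 over WT was 0.86 on the log2 scale (SE 0.20, limma adjusted p = 0.0408). RPS15A, which binds the central domain of the small-subunit RNA, had 736 and 1211 normalised reads in WT cells and 1741 and 1614 in GFP, a rise of 0.81 (SE 0.18, limma adjusted p = 0.0366). RPS29, a zinc-binding protein of the small-subunit head, had 4644 and 8337 in WT and 11542 and 9813 in GFP, a rise of 0.77 (SE 0.20, limma adjusted p = 0.0496). RPS12 had 7211 and 11698 in WT and 15940 and 14513 in GFP, a rise of 0.73 (SE 0.17, limma adjusted p = 0.0418). In all 4, WT library 1 was the lowest of the 4 control libraries. Without WT library 1 the changes of RPS21, RPS15A, RPS29 and RPS12 were 0.46, 0.46, 0.35 and 0.38, and 0 members and 0 genes in all were called, with 41 members higher at an unadjusted p under 0.05. Without WT library 2, 3 of the 6 genes called in all were members. Without GFP library 1 or 2, 46 and 48 members were called, where 8.01% and 19.5% of all genes were. Without RBMXL3 library 1 or 2, which enter the shared spread, 8 and 9 members were called, where 1.22% and 1.3% of all genes were. In summed TPM 0 members and 0 genes of any kind (0.0% higher and 0.0% lower) passed between the controls in limma, with 32 members higher and 0 lower at an unadjusted p under 0.05. The median member was 0.25 higher in TPM, where all genes were 0.09 lower.

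Between RBMXL3 and GFP, 38 members were called (limma, adjusted p under 0.05), where 20.9% of all genes were. In RBMXL3, 36 of them were lower, where 10.4% of all genes were, and 2 were higher, where 10.5% of all genes were. The median member was 0.34 lower on the log2 scale, against 0.00 for all genes, and 65 of 78 members were below 0. Falls that passed ran from 0.34 to 0.95 on the log2 scale. Both RBMXL3 libraries were under both GFP libraries for 56 members, where 30.9% of all genes were. RPS29 fell by 0.95 (SE 0.20, limma adjusted p = 0.00589), from 11542 and 9813 normalised reads in GFP to 5668 and 5299 in RBMXL3, the range of the WT libraries. The 2 members that rose were RPL22 and RPL36A. For both, GFP library 1 was the lowest of all libraries, so these rises lean on it. Relative to the member's mean over all libraries, RPL22 was at −0.39 there and 0.09 in GFP library 2 on the log2 scale. RPL36A was at −1.76 and −0.30. This comparison shares the GFP libraries with the comparison of GFP and WT, so a library that is high in GFP moves both. Without RBMXL3 library 1 or 2, 18 and 5 members were called, where 5.97% and 4.81% of all genes were.

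**Figure D3:**
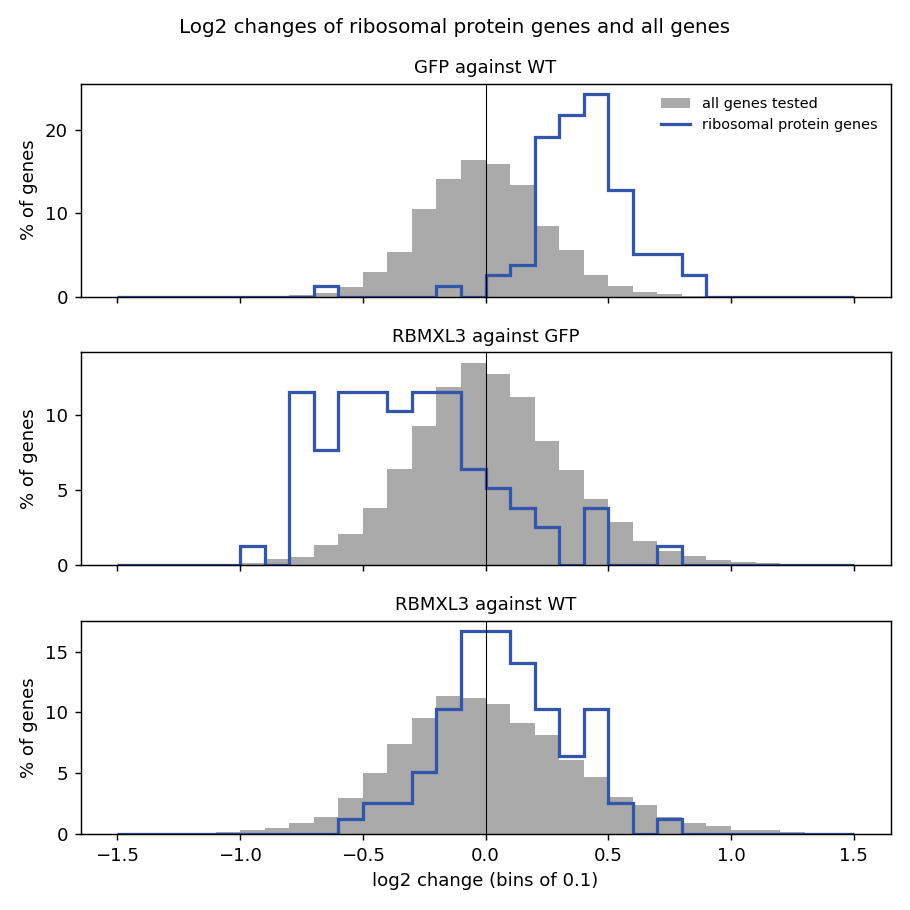
Distribution of log2 changes (x axis, bins of 0.1) as a percentage of genes (y axis) for the 78 ribosomal protein genes (blue line) and all 14292 tested genes (grey), in 3 comparisons. The medians of the members are 0.40, −0.34 and 0.07 from top to bottom.

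Scaling matters to the size of this difference. When columns were scaled to their totals, the median of all genes moved to 0.11 for RBMXL3 against GFP and to 0.09 against WT. The members' median against GFP was then 0.33 below that of all genes, close to its 0.34 under the authors' scaling. In summed TPM the median of all genes was 0.13 and the members lay 0.19 below it, at −0.07, with 34 members above 0 and 44 below. Quantile normalisation called 4 members higher and 16 lower against GFP, where it called 9.66% and 10.2% of all genes, and the members' median was −0.14, or 0.13 below that of all genes. Summed TPM called 1 member higher and 3 lower, where it called 5.46% and 1.47% of all genes.

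Between RBMXL3 and WT, of the 78 members, 14 were called (limma, adjusted p under 0.05), where 29.9% of all genes were. In RBMXL3, 10 were higher, where 14.6% of all genes were, and 4 were lower, where 15.3% of all genes were. The median member was 0.07 higher, against −0.01 for all genes, with 48 above 0 and 30 below. After quantile normalisation the members' median was 0.22 above that of all genes, with 63 above 0 and 14 below, and in summed TPM it was 0.18 above, with 63 and 15. Both RBMXL3 libraries exceeded both WT libraries for 30 members and were under them for 13, where 35.0% and 38.3% of all genes did so. The split between directions moved with the scaling. Members numbered 22 higher and 2 lower after quantile normalisation, where 13.9% and 13.8% of all genes passed. They numbered 19 and 3 after scaling to column totals, where 20.8% and 9.18% passed, and 4 and 1 in summed TPM, where 6.97% and 4.52% passed. Without WT library 1, 2 members were called, where 10.8% of all genes were, and the members' median was −0.02. Without RBMXL3 library 1 or 2, 1 and 2 were called, where 11.5% and 10.1% of all genes were. Without GFP library 1 or 2, 28 each were called, where 43.2% and 43.4% of all genes were.

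The 10 members above WT, listed after their values were seen, were RPS27, RPL22, RPL36, RPS9, RPS19, RPL13, RPL13A, RPL17, RPL18 and RPL29. Their rises ran from 0.31 (RPL29) to 0.70 (RPL17). RPL17 had only 75 to 122 reads per library, and in summed TPM it stood at 0.10 against WT (limma adjusted p = 0.577). RPS27, a zinc-finger protein of the small subunit, had 15136 and 15742 normalised reads in WT cells, 16929 and 21299 in GFP cells and 22794 and 21889 in RBMXL3 cells. Both RBMXL3 libraries were above all 4 controls, narrowly so for GFP library 2. RPS27 was 0.53 above WT (SE 0.12, limma adjusted p = 0.00656) and 0.23 above GFP (SE 0.12, limma adjusted p = 0.19). RPL36, a large-subunit protein, had 6766 and 7756 in WT cells, 9862 and 10673 in GFP cells and 10698 and 10110 in RBMXL3 cells. RPL36 was 0.52 above WT (SE 0.11, limma adjusted p = 0.00339), and its GFP and RBMXL3 libraries overlapped.

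Called in the same direction against both controls were 5 members, where 13.7% of all genes were: 4 were lower, where 6.86% of all genes were, and 1 was higher, where 6.88% were. The same 5 were called by edgeR, which called 13.2% of all genes, and by DESeq2, which called 11.4%. The 4 that fell were RPS26, RPS24, RPL28 and RPS4X. For each, both RBMXL3 libraries were under all 4 control libraries. Without WT library 1 or 2 the count of 5 became 2 each, without GFP library 1 or 2 it became 8 and 14, and without RBMXL3 library 1 or 2 it became 1 and 0. The shares of all genes called in those fits were 6.76% and 9.16%, 18.6% and 19.1%, and 3.96% and 3.15%.

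RPS26 (ENSG00000197728.11, chr12:56041351-56044697, plus strand), which contacts messenger RNA upstream of the start codon at the exit channel, had 9880 and 9527 normalised reads in WT cells, 11712 and 11663 in GFP cells and 7131 and 6513 in RBMXL3 cells. Group means were 9703 ± 249, 11688 ± 35.2 and 6822 ± 437 (SD, n = 2). It fell by 0.78 against GFP (SE 0.10, limma adjusted p = 0.000503) and by 0.51 against WT (SE 0.10, limma adjusted p = 0.00259). Summed TPM gave 1108 and 1109 in WT cells, 1156 and 1285 in GFP cells and 942 and 935 in RBMXL3 cells, again with no overlap, at −0.38 and −0.24 on the log2 scale (limma adjusted p = 0.0584 and 0.137).

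RPS24 (ENSG00000138326.21, chr10:78033732-78056813, plus strand), a small-subunit protein with alternatively spliced last exons, had 23513 and 23616 normalised reads in WT cells, 29933 and 28003 in GFP cells and 18442 and 17205 in RBMXL3 cells. It fell by 0.70 against GFP (SE 0.11, limma adjusted p = 0.00135) and by 0.40 against WT (SE 0.11, limma adjusted p = 0.0143). In TPM the changes were −0.29 and −0.14 (limma adjusted p = 0.104 and 0.346).

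RPL28 (ENSG00000108107.15, chr19:55385345-55403250, plus strand), a large-subunit protein that yeast lacks, had 18485 and 17297 normalised reads in WT cells, 22693 and 19516 in GFP cells and 13319 and 12666 in RBMXL3 cells. It fell by 0.70 against GFP (SE 0.11, limma adjusted p = 0.0017) and by 0.46 against WT (SE 0.11, limma adjusted p = 0.00882). Summed TPM called 2 members against both controls, where 4.59% of all genes were, RPL28 (lower) and RPS27 (higher). For RPL28 it gave 2075 and 1952 in WT cells, 2247 and 2011 in GFP cells and 1509 and 1492 in RBMXL3 cells, falls of 0.50 and 0.42 (limma adjusted p = 0.0384 and 0.0434).

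RPS4X (ENSG00000198034.11, chrX:72255679-72277300, minus strand), a small-subunit protein with a Y-linked counterpart, had 25903 and 27893 normalised reads in WT cells, 35891 and 32221 in GFP cells and 22227 and 20092 in RBMXL3 cells. It fell by 0.69 against GFP (SE 0.12, limma adjusted p = 0.00215) and by 0.35 against WT (SE 0.12, limma adjusted p = 0.0391). In TPM the changes were −0.31 and −0.11 (limma adjusted p = 0.106 and 0.507). After quantile normalisation neither RPS24 nor RPS4X was called against both controls. RPS4X was also not called against both after scaling to column totals or with the replicate block. RPS26 alone of the 5 was still called against both controls after leaving out WT library 1 or RBMXL3 library 1, and none of the 5 was after leaving out RBMXL3 library 2.

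RPL22 (ENSG00000116251.11, chr1:6185020-6209389, minus strand), a large-subunit protein that also binds structured RNA, was the member that rose. It had 1574 and 1806 normalised reads in WT cells, 1435 and 2000 in GFP cells and 2388 and 2252 in RBMXL3 cells. It was 0.45 higher than GFP (SE 0.14, limma adjusted p = 0.0367) and 0.45 higher than WT (SE 0.14, limma adjusted p = 0.0263). Its summed TPM went the other way, at 1073 and 1075 in WT cells, 1085 and 1076 in GFP cells and 916 and 900 in RBMXL3 cells, or −0.25 and −0.24 (limma adjusted p = 0.112 and 0.107). The direction of RPL22 therefore depends on the table.

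**Figure D4:**
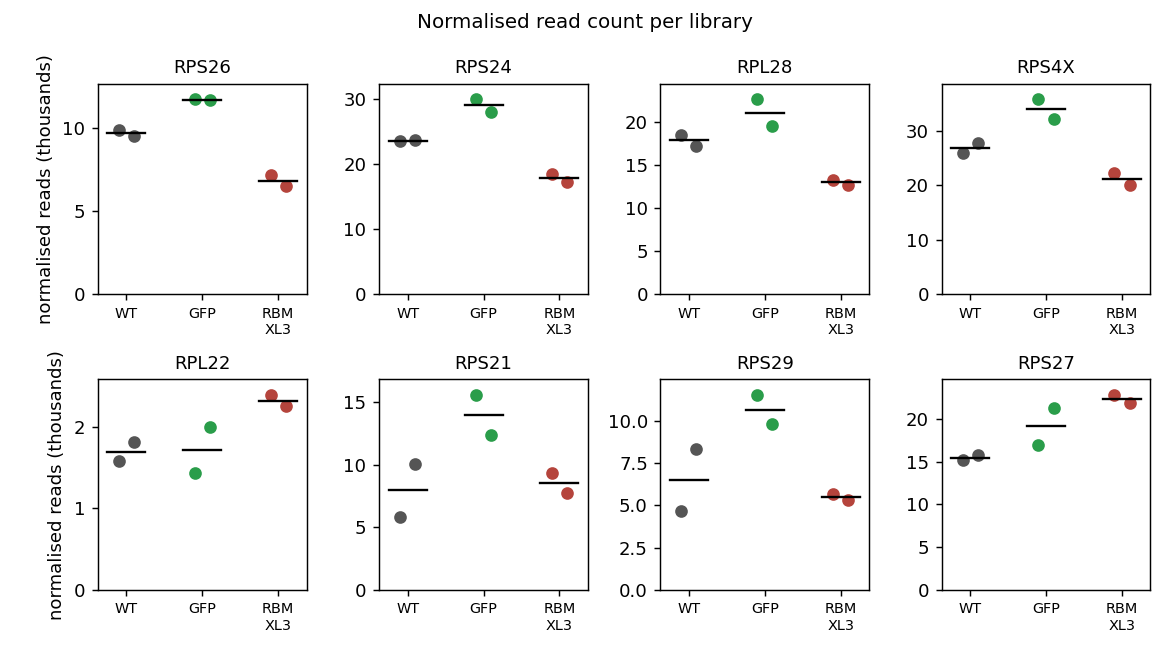
Normalised reads (y axis from 0, divided as the axis label states) of 8 members by group; points are libraries and lines are means of 2 libraries. RPS26, RPS24, RPL28 and RPS4X have both RBMXL3 libraries under all 4 controls, and for RPS21 and RPS29 both GFP libraries are highest.

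RPL22 is 1 of 9 members for which the tables disagree on level. For each member, the reads were set against the reads that its TPM and length would give, with the median gene at 1. The median member was at 0.776, and 69 members were between 0.25 and 4. Those below 0.25 included RPL41 (0.154), RPL22 (0.112), RPS15A (0.0678), RPL26 (0.0189), RPL36A (0.0166), RPL17 (0.00328) and RPS10 (0.00136), and above 4 was RPS27 (73.8). RPS10 thus had 19.3 to 39.2 normalised reads per library while its TPM was 1870 to 2731. On the same strand, the gene RPS10-NUDT3 covers 39.4% of the exon bases of RPS10, and RPL17-C18orf32 covers 24.8% of those of RPL17. Changes of these 9 in normalised reads rest on a small or large part of their messenger RNA, and the counting rule is not given in the sources used here. Of the 38 members called against GFP, 34 are among the other 69. Of the 14 called against WT, 11 are, 7 higher and 4 lower. The opposite signs of RPL36A (0.70 in reads and −0.38 in TPM against GFP, limma adjusted p = 0.0286 and 0.127) belong to this group. Among members with matching levels, RPS23, which lies at the decoding centre, was at −0.38 in reads and 0.03 in TPM against GFP, and RPL14 at −0.36 and 0.02.

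Both subunits held members that fell. Against GFP, 20 of 47 tested large-subunit genes fell and 2 rose, with a median of −0.30, and 16 of 31 small-subunit genes fell, with a median of −0.46, where 10.4% of all genes fell and 10.5% rose. Against WT, 7 large-subunit genes rose and 1 fell, and 3 small-subunit genes rose and 3 fell, with medians of 0.10 and 0.01, where 14.6% of all genes rose and 15.3% fell. Between the controls, 18 large-subunit and 7 small-subunit genes were higher in GFP, where 1.76% of all genes were. The difference between subunits was not tested.

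Both proteins of the 5S particle fell against GFP. RPL5 had 21499 and 22429 normalised reads in WT cells, 27074 and 29416 in GFP cells and 20244 and 18296 in RBMXL3 cells, a fall of 0.55 against GFP (SE 0.11, limma adjusted p = 0.00515) and −0.19 against WT (limma adjusted p = 0.211). RPL11 had 16038 and 15987 in WT cells, 21013 and 21273 in GFP cells and 15325 and 14809 in RBMXL3 cells, a fall of 0.49 (SE 0.10, limma adjusted p = 0.00582) and −0.09 against WT (limma adjusted p = 0.536). For both genes the RBMXL3 libraries were under all 4 controls in normalised reads, though the distance to WT did not pass the test. In summed TPM the RBMXL3 and WT libraries overlapped for both. There RPL5 and RPL11 stood at −0.19 and −0.15 against GFP (limma adjusted p = 0.242 and 0.352). Against WT they stood at 0.06 and 0.04 in TPM (limma adjusted p = 0.709 and 0.823).

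The 3 stalk proteins, which recruit elongation factors to the ribosome, also fell against GFP. RPLP0, the stalk base, had 65055 and 68439 normalised reads in WT cells, 99834 and 77989 in GFP cells and 57699 and 55640 in RBMXL3 cells, a fall of 0.64 (SE 0.14, limma adjusted p = 0.00935). RPLP2 fell by 0.49 (limma adjusted p = 0.0108) and RPLP1 by 0.46 (limma adjusted p = 0.0263). Against WT the 3 stood at −0.24, −0.04 and 0.10, and none passed (limma, 0 also at an unadjusted p under 0.05). In summed TPM all 3 were below 0 against GFP, with a median of −0.18, but 0 passed (limma).

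Of 19 members mutated in Diamond-Blackfan anaemia, an inherited failure of red cell production, 8 fell and 0 rose against GFP (limma, 0 rises also at an unadjusted p under 0.05), 3 rose and 2 fell against WT, and 5 were higher in GFP than in WT. The shares of all genes were 10.4% and 10.5% against GFP, 14.6% and 15.3% against WT, and 1.76% between the controls. Of all 78 tested members, 46.2% fell and 2.56% rose against GFP, and 12.8% rose and 5.13% fell against WT. Between the controls 32.1% of the members were higher in GFP. A difference between the 19 and the other members was not tested. The 2 that fell against WT were RPS26 and RPS24.

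Transcript length moved with some of these differences. Tested members had a median transcript length of 667 nt, against 2484 nt for other coding genes. Among other coding genes, the median difference between GFP and WT went from 0.26 under 700 nt (212 genes) through 0.18, 0.10 and 0.04 to −0.09 over 2500 nt. Members under 700 nt (36 genes with matching levels) stood at 0.45, above other genes of that length. For RBMXL3 against GFP, other coding genes went from −0.20 under 700 nt to 0.03 over 2500 nt, and members under 700 nt stood at −0.42. Members did not follow length evenly here, at −0.23 from 700 to 1000 nt and −0.48 from 1000 to 1500 nt. The WT libraries also differed this way: library 1 minus library 2 was −0.10 for other coding genes under 700 nt and −0.21 for members. Across 69 members, which share the same libraries, WT library 1 minus library 2 had Pearson's r of 0.52 with log2 length (Spearman's rho 0.44), and GFP minus WT had r of −0.43 (rho −0.33). The relation was weaker for RBMXL3 minus GFP, with r of 0.20 (rho 0.21), and for RBMXL3 minus WT, with r of −0.04 (rho −0.01). The part of length in the members' changes was not tested.

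**Figure D5:**
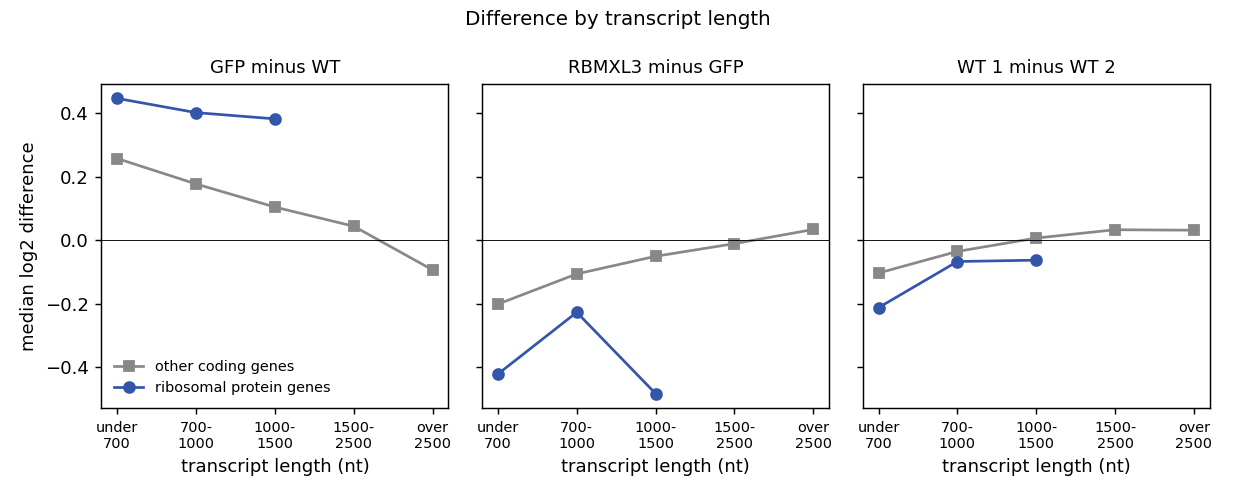
Median log2 difference (y axis) by transcript length class (x axis, nt) for ribosomal protein genes (blue circles, 36, 24 and 8 genes) and other coding genes (grey squares), for GFP minus WT, RBMXL3 minus GFP and WT library 1 minus library 2. Members lie at 0.45 and −0.42 in the shortest class, outside the other coding genes at 0.26 and −0.20.

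Genes that work with the ribosomal proteins were examined as lists. Of 20 tested other genes with TOP messenger RNAs, mostly translation factors, 9 fell and 0 rose in RBMXL3 against GFP (limma, 0 rises also at an unadjusted p under 0.05), with a median of −0.31, and 3 fell and 1 rose against WT, with a median of −0.17. Of all genes in reads, 10.4% fell and 10.5% rose against GFP, and 15.3% fell and 14.6% rose against WT. The 3 falls against WT are near the share of all genes. EEF1B2, an exchange factor of elongation factor 1, fell by 0.81 against GFP and 0.54 against WT (limma adjusted p = 0.00044 and 0.00192). The initiation factor subunits EIF3K and EIF3H fell by 0.49 and 0.46 against GFP and by 0.33 and 0.32 against WT. Between the controls 0 of the 20 passed in limma, with 8 higher at an unadjusted p under 0.05. Summed TPM showed little of the fall. Of 21 genes tested there, 1 fell and 0 rose against GFP (limma), with a median of −0.02, 10 above 0 and 11 below. Against WT, 3 rose and 0 fell in TPM, with a median of 0.03. Of all genes in TPM, 1.47% fell and 5.46% rose against GFP, and 4.52% fell and 6.97% rose against WT.

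Of 34 tested ribosome biogenesis factors, 10 fell against GFP and 12 against WT, with medians of −0.25 and −0.26, and 0 rose in either (limma, 0 also at an unadjusted p under 0.05). In the same fit 10.4% of all genes fell and 10.5% rose against GFP, and 15.3% fell and 14.6% rose against WT. Between the controls 0 passed and the median was −0.02, with 4 lower at an unadjusted p under 0.05. WDR12, which processes the large-subunit precursor, fell by 0.52 against each control, and NOP16, a nucleolar factor, fell by 0.54 and 0.50. The small-subunit factors TSR1 and LTV1 fell by 0.43 and 0.41 against GFP and by 0.42 and 0.70 against WT. WDR12 had 2878 and 2694 normalised reads in WT cells, 2846 and 2727 in GFP cells and 1927 and 1945 in RBMXL3 cells. In summed TPM, of 35 factors tested, 1 fell and 1 rose against GFP (limma), with a median of −0.04, 16 above 0 and 19 below. Against WT, 2 fell and 0 rose in TPM, with a median of −0.16, 9 above 0 and 26 below. Of all genes in TPM, 1.47% fell and 5.46% rose against GFP, and 4.52% fell and 6.97% rose against WT.

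Of the 6 chaperones of single ribosomal proteins, 2 fell against GFP and 1 against WT, where 10.4% and 15.3% of all genes fell. In summed TPM 0 of the 6 passed against either control (limma), with 5 above 0 and 1 below against GFP, and 2 above and 4 below against WT. HEATR3, which imports RPL5 into the nucleus, fell against both, by 0.34 and 0.50 (limma adjusted p = 0.0477 and 0.00586). Of 9 regulators of TOP messenger RNAs, 1 rose against GFP, where 10.5% of all genes did. Against WT, 1 rose and 1 fell, where 14.6% and 15.3% of all genes did. EIF4EBP1, the translation repressor that mTOR phosphorylates, had 1775 and 1543 normalised reads in WT cells, 2066 and 2408 in GFP cells and 3582 and 3374 in RBMXL3 cells. It rose by 0.63 against GFP and by 1.06 against WT (limma adjusted p = 0.00242 and 6.43e-05), and by 0.88 against GFP in TPM (limma adjusted p = 0.0234). RPL26L1, a paralog of RPL26 that the member rule leaves out, fell by 0.72 and 0.50 (limma adjusted p = 0.00116 and 0.0047).

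Transcript usage, tested on TPM with limma's diffSplice, asks whether a transcript's share of its gene differs in RBMXL3. Against both controls 10 of 77 members had a changed transcript, 12 transcripts in all, where 7.26% of all genes had one. A test of the shares themselves called 0 members, where 0.823% of all genes passed, with 9 at an unadjusted p under 0.05. Between the controls 2 of the 77 members had a changed transcript in diffSplice, where 138 of 8875 genes did. Without WT library 1 or 2 the count against both controls was 6 and 5, and without RBMXL3 library 1 or 2 it was 3 and 5.

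The largest changes were of minor transcripts. RPL8-204, a retained-intron transcript, held 19.0% and 16.2% of the TPM of RPL8 in WT cells, 8.48% and 13.5% in GFP cells and 1.79% and 0.964% in RBMXL3 cells. RPS3-210, annotated as a target of nonsense-mediated decay, held 18.0% and 10.1% of RPS3 in WT cells, 12.1% and 8.57% in GFP cells and 1.24% and 1.48% in RBMXL3 cells. In both genes the shares of RBMXL3 lie apart from all 4 controls. In RPL31, RPL31-201 went from 11.7% and 12.3% in WT and 15.2% and 12.9% in GFP to 3.65% and 4.75% in RBMXL3. RPL31-208 went from 1.03% and 1.21% in WT and 0.273% and 0.358% in GFP to 5.58% and 4.51%. For RPL15-216 and RPL4-207 the control libraries spread widely: RPL15-216 held 1.03% and 7.94% of RPL15 in WT and 17.4% and 2.19% in GFP, against 0.324% and 0.428% in RBMXL3. RPL4-207, a retained-intron transcript, held 7.34% and 1.19% of RPL4 in WT cells, 7.69% and 0.581% in GFP cells and 0.0960% and 0.0506% in RBMXL3 cells.

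Over all members, coding transcripts held 92.5% to 93.4% of the members' TPM in each library. Retained-intron transcripts held 5.62% and 4.77% in WT cells, 4.49% and 4.55% in GFP cells and 4.50% and 4.47% in RBMXL3 cells. WT library 1 was the highest, and the GFP and RBMXL3 libraries were within 0.1 of a percentage point of each other.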

How the data were processed

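Per the labels, column-purified, DNase-treated RNA went into a stranded library kit for messenger RNA. The submitters' processing notes name Trim Galore 0.6.10, STAR 2.7.11a, DESeq2, Salmon 1.10.2 and GRCh38. The counter, annotation and use of strand are not given in the sources used here. The deposited gene values carry the name CPM but are a normalised signal: the authors divided read counts by 1 size factor per library, and 100% of 145320 nonzero values were whole reads within 0.01. The deposited transcript table holds TPM, summed per gene over transcripts found in GENCODE 29 (79.9% of 251955, with 94.6% to 95.0% of TPM); TPM keeps no depth.

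Gene values were divided by 23.9, a common factor, so that a minimum of 1 in at least 2 libraries and a pseudocount of 1 are near CPM; 14292 genes remained. The test design had assumed CPM. One limma 3.58.1 fit (R 4.3.3) of 6 libraries used log2(value + 1) with a trend, two-sided, with Benjamini-Hochberg adjustment over all genes and a call at an adjusted p under 0.05. Fold changes on this scale understate low genes. Printed levels are the deposited normalised reads. edgeR 4.0.16 and DESeq2 1.42.0 ran on recovered reads. Scripts were tested on simulated data.

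Members and gene lists were chosen with earlier results of these data known. Genes were named by rule: the 3 most and 3 least abundant tested members, those called against both controls, up to 4 each way between controls, paralogs, 5S and stalk proteins, up to 5 with opposite signs in TPM, up to 5 with changed transcript usage, and up to 4 per list called against both controls. Some single-gene results under this rule are not reported here. The lists were subunits, 5S particle, stalk, Diamond-Blackfan anaemia, paralogs, related genes, other TOP messenger RNAs, biogenesis, chaperones, TOP regulators, snoRNA hosts, mitochondrial ribosomal proteins, pseudogenes, and markers of seminoma, embryonal carcinoma and fibroblasts. Alternatives were other pseudocounts, filters, scalings and tools, summed TPM, a replicate block, leaving out each library and, added after seeing the data, members with matching levels.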

Additional observations from a re-analysis of the deposited data

How the results depend on the processing

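Counts of members called are given for RBMXL3 against GFP (38), RBMXL3 against WT (14), GFP against WT (25) and both controls (5). Without a filter on low values they were 5, 2, 0 and 1, with 30989 genes tested; between the controls 54 members had an unadjusted p under 0.05 in limma. Summed TPM gave 4, 5, 0 and 2, and quantile normalisation gave 20, 24, 11 and 5. The 5 called against both controls after quantile normalisation were 3 higher and 2 lower, where 6.37% and 6.57% of all genes were. Only RPL22, RPL28 and RPS26 were shared with the main 5. Scaling to column totals gave 22 against WT and 13 between the controls, and DESeq2 gave 41 between the controls; the cause was not tested. Leaving out 1 library at a time gave 5 to 51, 1 to 28, 0 to 48 and 0 to 14 calls in that order. The lowest values came without RBMXL3 library 2 (5), RBMXL3 library 1 (1), WT library 1 (0) and RBMXL3 library 2 (0), and the highest without GFP library 2, with 28 also reached without GFP library 1. A group left with 1 library is assumed to vary like the others. A mean filter at 5, a pseudocount of 0.1, edgeR and DESeq2 each left the same 5 members called against both controls.

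The replicate block gave 36, 12, 4 and 4 calls. Replicate numbers are shared between groups, and deviations of same-numbered libraries correlated at −0.16 (WT and GFP), 0.03 (WT and RBMXL3) and −0.09 (GFP and RBMXL3). These values show no strong shared deviation. They cannot tell whether same-numbered libraries were cultured or prepared together, which the labels do not state.

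In summed TPM the changes against GFP of RPL14 (0.024), RPL22 (−0.25), RPL36A (−0.38) and RPS23 (0.025) and that of RPL22 against WT (−0.24) turned direction, and 27 others of the 36 named changes kept their direction and no longer passed. The members' median for RBMXL3 against WT was −0.023 without WT library 1 and 0.148 without WT library 2. The share held by members differed by 1.94 percentage points of TPM for RBMXL3 against WT and 3.25 for GFP against WT, against 0.578 and 1.71 of reads. Leaving out a library gave −1.34 to −0.929 (RBMXL3 against GFP), 0.292 to 0.863 (RBMXL3 against WT) and 1.43 to 1.997 (GFP against WT) points of reads. Members with changed transcript usage were 0 in the test of shares and 3 to 10 when a library was left out. RPL3L and RPL10L, with 3 to 23 reads per library, were too shallow to test.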

Other observations

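Mitochondrial ribosomal protein genes, whose products form a separate ribosome, gave a smaller shift. Of 76 tested, 23 fell and 3 rose in RBMXL3 against GFP, 9 fell and 7 rose against WT, and 3 were higher in GFP than in WT, with medians of −0.20, −0.04 and 0.14. Of all genes, 10.4% fell and 10.5% rose against GFP, 15.3% fell and 14.6% rose against WT, and 1.76% were higher in GFP than in WT, shares that also stand beside the lists that follow. MRPS6 fell by 0.72 against GFP and by 0.54 against WT (limma adjusted p = 0.0028 and 0.0081), MRPS9 by 0.50 and 0.51, and MRPL39 by 0.62 and 0.45. MRPL12, a stalk protein of that ribosome, rose by 0.62 and 0.89 (limma adjusted p = 0.0272 and 0.00336).

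Of 1598 pseudogenes of ribosomal proteins, 48 passed the filter on low values; 12 fell and 0 rose against GFP, with 2 higher at an unadjusted p under 0.05 in limma. Against WT, 8 fell and 3 rose, and 3 were higher in GFP than in WT. Such copies can take reads of their parent genes. Of 10 snoRNA host genes, 2 fell against GFP, 1 rose against WT and 1 was higher in GFP than in WT. Of 10 seminoma markers, 2 fell against GFP, and 3 fell and 1 rose against WT. KIT fell by 0.39 and 0.80 (limma adjusted p = 0.015 and 0.000159), and LIN28A by 0.37 and 0.33. Of 2 embryonal carcinoma markers, SOX2 rose by 0.61 against GFP (limma adjusted p = 0.048) and DNMT3B by 0.37 against WT (limma adjusted p = 0.0158). SOX2 against WT was at 0.30 and DNMT3B against GFP at 0.09 (limma adjusted p = 0.275 and 0.577). SOX2 is near the floor, under 1 TPM in each group mean, and in GFP against WT it stood at −0.31. Of 5 tested fibroblast markers, 1 rose against GFP, 3 rose against WT and 4 were higher in GFP than in WT. COL3A1 rose by 1.15 and 1.86 (limma adjusted p = 0.000281 and 3.07e-06), from 114 to 214 normalised reads in the controls to 503 and 490 in RBMXL3. The part of these cell type markers in the members' changes was not tested.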
